A study of Homo sapiens with 8 samples.

Results

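The 10 genes described here are AXIN2, NKD1, RNF43, ZNRF3, DKK1, LGR5, ASCL2, SP5, BMP4 and CCND1, of 18404 genes with an annotated probe set on the array. The first 8 are canonical targets or feedback genes of Wnt signalling, and BMP4 and CCND1 (cyclin D1) were taken with them as genes linked to the pathway. They were taken by symbol, with 1 probe set each, and none of them shares a probe set with another symbol. The genes were chosen by their difference between TRIM44 siRNA and negative siRNA on these arrays, so that difference is given below as a description with no test.

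Expression was measured in HSC39, a human gastric cancer line of signet ring type, 48 h after small interfering RNA (siRNA) directed at TRIM44 was transfected. TRIM44 is a gene of the tripartite motif family. There were 2 arrays of TRIM44 siRNA 7 and 2 of TRIM44 siRNA 9, which the series text counts as 1 condition of 4 replicates, and 4 arrays of a negative control siRNA (All stars negative), which the series text calls untreated. The labels give 100 nM (written nm) for the TRIM44 siRNAs, in 1 protocol text that is the same for all samples, and the 8 samples share the cell line, the medium and the array type. Nothing beyond the series text says whether the replicates were separate cultures, so the p-values refer to the variation among these 8 arrays, part of which may be technical.

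In the canonical Wnt pathway a secreted Wnt protein engages a Frizzled receptor and an LRP co-receptor, which stops a cytoplasmic destruction complex from marking beta-catenin for degradation. Beta-catenin then enters the nucleus and activates genes with TCF and LEF transcription factors. Several of those genes encode inhibitors of the pathway itself, which makes their transcripts a common readout of its activity, and in the stomach and intestine others mark stem cells. HSC39 is known for an in-frame deletion in its beta-catenin gene, CTNNB1, that removes part of the amino-terminal region where alpha-catenin binds and where the destruction complex acts.

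Promoters are shown because TCF and LEF factors recognise a short motif, searched here as CTTTGAA or CTTTGAT on either strand. The RefSeq promoter table (GRCh38.p14) held 7 promoters of 4 of the genes, namely SP5, DKK1, BMP4 and RNF43. The motif was found within the 250 bases before the start of 2 of them, SP5 and DKK1, in capitals below, and the matches do not overlap each other. SP5, a zinc finger repressor, holds 3 matches, which begin 148, 109 and 84 bases before the start, and its window lies at chr2:170715087-170715336 on the plus strand. DKK1, a secreted inhibitor of LRP co-receptors, holds 1 match, 95 bases before the start, at chr10:52314031-52314280 on the plus strand.
SP5: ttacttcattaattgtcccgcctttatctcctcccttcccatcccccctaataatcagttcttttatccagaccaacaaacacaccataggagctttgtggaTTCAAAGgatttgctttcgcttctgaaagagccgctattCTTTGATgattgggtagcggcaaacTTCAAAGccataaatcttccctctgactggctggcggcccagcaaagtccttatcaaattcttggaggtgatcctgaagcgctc
DKK1: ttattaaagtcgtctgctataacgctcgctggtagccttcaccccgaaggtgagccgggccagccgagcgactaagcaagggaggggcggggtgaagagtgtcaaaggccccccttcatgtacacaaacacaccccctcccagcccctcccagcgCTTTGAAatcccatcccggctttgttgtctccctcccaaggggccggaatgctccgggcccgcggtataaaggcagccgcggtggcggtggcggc
At least 1 match was present in 5.94% of the 35116 promoters of this length, and at least 3 matches in 0.0199%. A match is a string of letters and does not show that a factor binds there.

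TRIM44 itself was lower with both reagents. Its log2 level was 10.85 and 11.27 with siRNA 7 and 11.10 and 11.14 with siRNA 9, against 11.91, 12.02, 11.91 and 11.77 with negative siRNA. All 4 TRIM44 siRNA arrays lay below all negative arrays, as they did for 1.26% of probe sets (difference -0.81, SE 0.10, limma adjusted p = 0.0449 over 19158 probe sets). That call ended when any 1 array other than siRNA 7 array 2 was left out. Limma then called no probe set (592 to 1707 at an unadjusted p under 0.05). Against negative siRNA, TRIM44 also passed with siRNA 7 alone (-0.84, limma adjusted p = 0.0405) and with siRNA 9 alone (-0.78, limma adjusted p = 0.0155). With siRNA 7 that call ended under another setting, where limma called no probe set. Array medians were 6.78 to 6.87, and on the first principal component negative array 2 lay at 13.63, near the siRNA 9 arrays at 15.50 and 17.16, and the remaining 5 arrays had scores of -11.78 to -5.57. The epithelial markers EPCAM, CDH1, KRT8, KRT18, KRT19 and CLDN4 had mean log2 levels of 10.37 to 13.05. The 5 leukocyte markers had levels of 4.23 (PTPRC) to 11.53 (LYZ, which gastric epithelium also makes), the 6 fibroblast markers 4.38 (DCN) to 9.77 (LUM) and the 4 endothelial markers 5.41 (KDR) to 6.92 (CDH5). Signal over background is not given, so a low level does not show absence, and in bulk RNA fewer cells of a type and less RNA per cell cannot be told apart.

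Compared with negative siRNA, all 10 genes had a higher mean with TRIM44 siRNA, with a median log2 difference of 0.24 and a range of 0.02 for ZNRF3 to 0.68 for BMP4. The median over all probe sets was 0.01, and 53.7% of probe sets had a difference above 0. The values separated by reagent and by array. With siRNA 9 the median of the 10 genes was 0.41, and for 7 of them both arrays lay above all negative arrays, as they did for 13.4% of all probe sets. With siRNA 7 the median was 0.09, and only for DKK1 did both arrays lie above all negative arrays, as they did for 6.38% of probe sets.

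**Figure D1:**
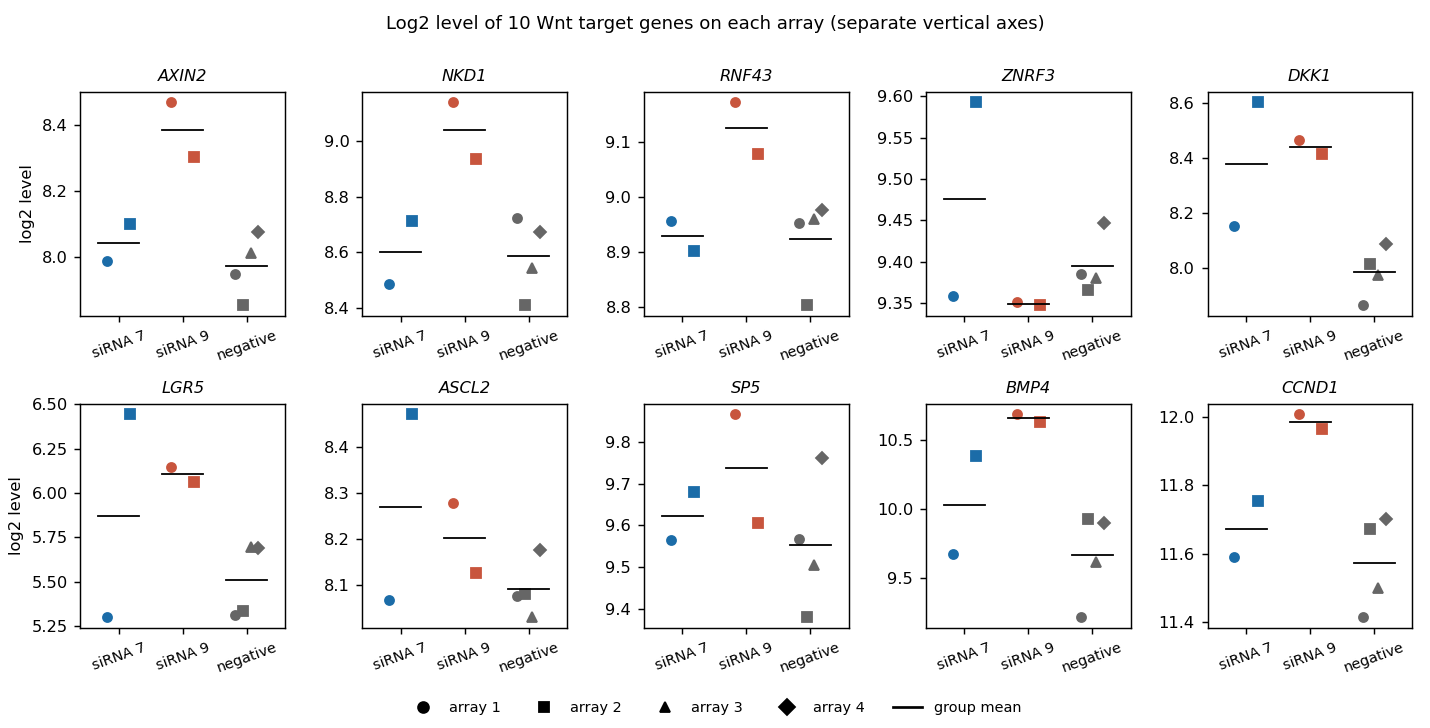
Each panel plots the log2 level of 1 gene (vertical axis, scaled separately) on every array of siRNA 7, siRNA 9 and negative siRNA, with a line at the group mean. The siRNA 9 points lie above all negative points for AXIN2, NKD1, RNF43, DKK1, LGR5, BMP4 and CCND1, while the siRNA 7 arrays lie apart from each other for LGR5, ASCL2, DKK1 and BMP4.

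Among the inhibitors that act inside the cell or on the receptors, AXIN2 and NKD1 followed siRNA 9. AXIN2, a scaffold of the destruction complex and one of the most widely induced Wnt targets, had log2 levels of 7.99 and 8.10 with siRNA 7 and 8.47 and 8.30 with siRNA 9, against 7.95, 7.85, 8.01 and 8.08 with negative siRNA. Both siRNA 9 arrays were above every negative array, while siRNA 7 array 1 lay among them and array 2 just above. The difference was 0.24 (SE 0.11) with the reagents together, 0.07 (SE 0.10) with siRNA 7 and 0.41 (SE 0.10) with siRNA 9.

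NKD1, which binds Dishevelled and dampens the signal, had 8.48 and 8.71 with siRNA 7 and 9.14 and 8.93 with siRNA 9, against 8.72, 8.41, 8.54 and 8.67 with negative siRNA. The siRNA 7 values overlapped the negative values and the siRNA 9 values did not. Its difference was 0.23 (SE 0.13) with the reagents together, 0.01 (SE 0.12) with siRNA 7 and 0.45 (SE 0.12) with siRNA 9.

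RNF43 and ZNRF3 encode related membrane ubiquitin ligases that remove Frizzled receptors from the cell surface. RNF43 had 8.96 and 8.90 with siRNA 7 and 9.17 and 9.08 with siRNA 9, against 8.95, 8.80, 8.96 and 8.98 with negative siRNA. The siRNA 9 arrays were highest, at a difference of 0.20 (SE 0.09), and siRNA 7 differed by 0.01 (SE 0.09). ZNRF3 had 9.36 and 9.59 with siRNA 7 and 9.35 and 9.35 with siRNA 9, against 9.39, 9.37, 9.38 and 9.45 with negative siRNA. Here a single array, siRNA 7 array 2, stood above the rest and both siRNA 9 arrays were lowest, below all negative arrays as for 9.23% of probe sets, so the difference was 0.08 (SE 0.09) with siRNA 7 and -0.05 (SE 0.09) with siRNA 9. Without siRNA 7 array 2 the ZNRF3 difference with the reagents together was -0.04, in place of 0.02.

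DKK1 was the only one of the 10 genes whose 4 TRIM44 siRNA arrays all lay above the 4 negative arrays, an arrangement that 1.59% of all probe sets showed. Its log2 level was 8.16 and 8.61 with siRNA 7 and 8.47 and 8.42 with siRNA 9, against 7.87, 8.01, 7.97 and 8.09 with negative siRNA. It averaged 8.38 ± 0.32 on the siRNA 7 arrays and 8.44 ± 0.04 on the siRNA 9 arrays (SD, n = 2 each), against 7.99 ± 0.09 on the negative arrays (SD, n = 4). The differences were 0.40 (SE 0.12) with siRNA 7 and 0.46 (SE 0.12) with siRNA 9, or 1.31-fold and 1.37-fold. The siRNA 7 difference was 0.17 without array 2 and 0.62 without array 1. With each array left out in turn the difference of the reagents together was 0.36 to 0.51.

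The stem cell genes were more uneven. LGR5, the R-spondin receptor gene that marks stem cells of the gastric and intestinal glands, had 5.30 and 6.45 with siRNA 7 and 6.15 and 6.06 with siRNA 9, against 5.31, 5.33, 5.69 and 5.69 with negative siRNA. All of these values lay below the array medians of 6.78 to 6.87, and LGR5 was not among the brighter 50% of probe sets. Its differences therefore come from a weak signal, for which the level over background is not given. The siRNA 7 arrays held both the highest and the lowest LGR5 value of all 8. They differed by 1.15, which is more than the 0.38 spanned by the negative arrays. Its difference was 0.60 (SE 0.24) with siRNA 9. With siRNA 7 it was 0.37 (SE 0.24), or -0.21 without array 2 and 0.94 without array 1.

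ASCL2, a transcription factor of intestinal stem cells, had 8.07 and 8.47 with siRNA 7 and 8.28 and 8.13 with siRNA 9, against 8.08, 8.08, 8.03 and 8.18 with negative siRNA. Each reagent had 1 array above the negative range and 1 within it, and the difference of the reagents together was 0.15 (SE 0.10). SP5, whose promoter carries the 3 matches shown above, had 9.56 and 9.68 with siRNA 7 and 9.87 and 9.61 with siRNA 9, against 9.57, 9.38, 9.50 and 9.76 with negative siRNA. A single array, siRNA 9 array 1, exceeded the negative range, and the difference was 0.13 (SE 0.10).

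BMP4, a secreted growth factor of the bone morphogenetic protein pathway, had the largest difference of the 10 genes with the reagents together. By that difference, on which the genes were chosen, it ranked number 6 from the top of 19158 probe sets. BMP4 ranked number 12 with siRNA 9 and number 146 with siRNA 7, there behind DKK1 (117) and LGR5 (143). The log2 level of BMP4 was 9.68 and 10.38 with siRNA 7 and 10.69 and 10.63 with siRNA 9, against 9.22, 9.93, 9.62 and 9.90 with negative siRNA. The siRNA 9 mean of 10.66 ± 0.04 (SD, n = 2) was 1.99-fold above the negative mean of 9.67 ± 0.33 (SD, n = 4), and the negative arrays themselves spanned 0.71. For siRNA 7 the mean was 10.03 ± 0.50 (SD, n = 2), a difference of 0.36 (SE 0.21), which was 0.01 without array 2 and 0.72 without array 1.

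CCND1, or cyclin D1, which activates the kinases CDK4 and CDK6 in G1 phase, had 11.59 and 11.75 with siRNA 7 and 12.01 and 11.96 with siRNA 9, against 11.41, 11.67, 11.50 and 11.70 with negative siRNA. Its siRNA 9 arrays were the highest, at a difference of 0.41 (SE 0.11) or 1.33-fold. The siRNA 7 arrays straddled the top of the negative range, at a difference of 0.10 (SE 0.11).

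The arrays of siRNA 7 lay apart, most of all for LGR5, BMP4, DKK1 and ASCL2. Array 2 was above array 1 for 9 of the 10 genes, all but RNF43, and 44.1% of all probe sets had array 2 above array 1. With each gene centred over the 8 arrays, the mean of the 10 genes was -0.15 on siRNA 7 array 1 and 0.20 on array 2, and it was 0.30 and 0.19 on the siRNA 9 arrays, against -0.21, -0.18, -0.14 and -0.01 on the negative arrays. TRIM44 was at 10.85 on siRNA 7 array 1, its lowest value of the 8 arrays, and at 11.27 on array 2, the highest of the TRIM44 siRNA arrays. The array with the least TRIM44 was therefore not one of those with high Wnt target levels, and whether the 2 are linked was not tested. With siRNA 9, array 1 was above array 2 for all 10 genes, as for 61.9% of all probe sets, and by at most 0.26, for SP5. For AXIN2, RNF43 and SP5 the siRNA 9 arrays were further apart than the siRNA 7 arrays, and for the other genes they were closer together.

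Negative arrays varied as well. Negative array 4 was the highest of its group for 7 of the 10 genes and above the negative mean for all 10. Negative array 2, which lay with siRNA 9 on the first principal component, was the lowest of its group for 5 genes and the lowest of all 8 arrays for AXIN2, NKD1, RNF43 and SP5. Leaving it out gave a median difference of 0.19 for the 10 genes. Leaving out siRNA 9 array 1 gave 0.14, and leaving out siRNA 7 array 1 gave 0.33.

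**Figure D2:**
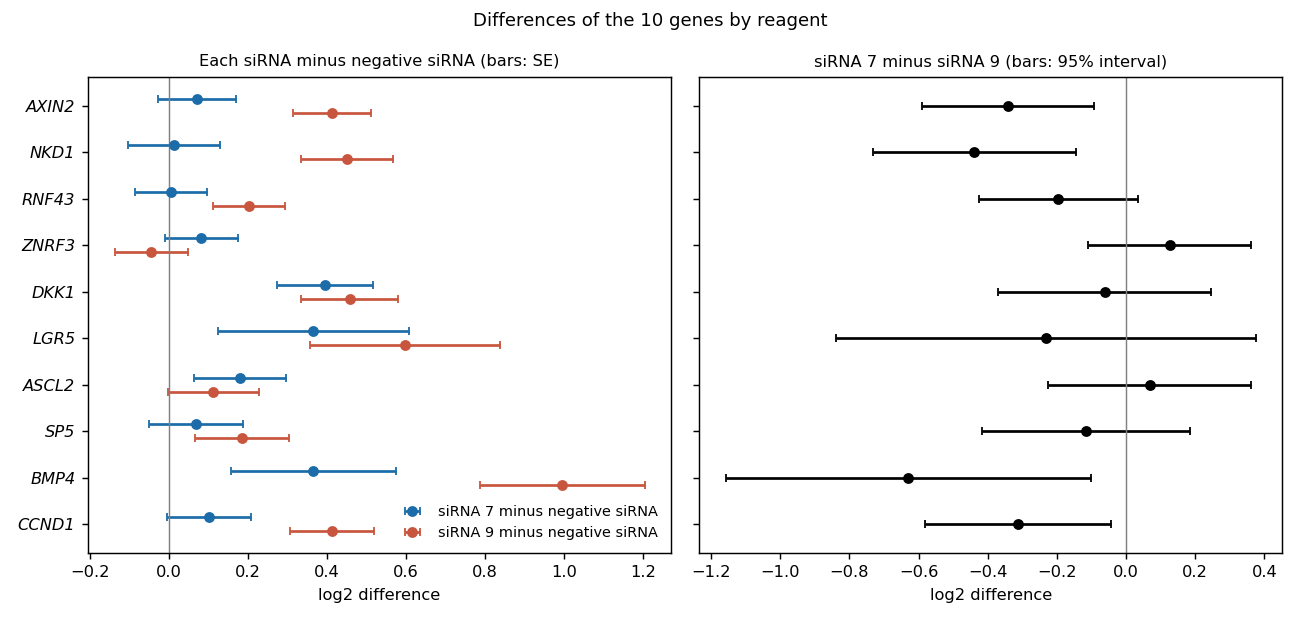
The left panel plots the log2 difference of siRNA 7 and of siRNA 9 from negative siRNA for each gene with its SE, and the right panel plots siRNA 7 minus siRNA 9 with its 95% interval, both from the fit of 3 group means. BMP4 reaches 0.99 with siRNA 9, ZNRF3 lies near 0 with both reagents, and the right-hand intervals of AXIN2, NKD1, BMP4 and CCND1 lie below 0.

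The reagents were compared directly, since the set was not drawn up on that difference, although values by reagent were known. Of the 10 genes, 8 had a lower mean with siRNA 7 than with siRNA 9, as did 56.7% of all probe sets, and none passed the threshold (limma adjusted p under 0.05 over 19158 probe sets), which 2.23% of all probe sets did. At an unadjusted p under 0.05 there were 4, namely NKD1, AXIN2, BMP4 and CCND1, as there were 15.7% of all probe sets. NKD1 had the smallest adjusted p, with a difference of -0.44 (95% interval -0.73 to -0.14, limma adjusted p = 0.122). AXIN2 had -0.34 (-0.59 to -0.09, adjusted p = 0.154 in limma), and BMP4 had -0.63 (-1.16 to -0.10, adjusted p = 0.217 in limma). For CCND1 the difference was -0.31 (-0.58 to -0.04, adjusted p = 0.229 in limma).

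For the other genes the intervals held 0 and remained wide. LGR5 had -0.23 (95% interval -0.84 to 0.38) and RNF43 had -0.20 (-0.43 to 0.03). DKK1 had -0.06 (-0.37 to 0.25), which leaves room for a level up to 0.37 lower or 0.25 higher with siRNA 7. The adjusted p was 0.410 to 0.902 for the 6 genes in limma. These values do not show that the reagents acted alike.

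Other components of the pathway were examined in 8 lists drawn up from textbook roles, with 168 of 177 listed genes measured. The other 9, among them TCF7, PORCN and BMPR1A, had no probe set of their own and were not analysed here. With the reagents together, limma called none of the 168, and 0.00522% of all probe sets passed, which was TRIM44 alone. At an unadjusted p under 0.05 there were 14 of the 168 and 5.43% of all probe sets. With siRNA 7 against negative siRNA, limma called none of them, where 0.0679% of probe sets passed, and 13 had an unadjusted p under 0.05, as did 7.46% of all probe sets. With siRNA 9 there was 1 call, higher, where 0.924% of probe sets passed and 0.334% passed as higher. That count was 0 to 14 with 1 array left out, the 14 without negative array 2, and 27 with array weights. Calls over all 19158 probe sets also rose, with siRNA 9 from 177 to 1067 without negative array 2. They reached 2082 under the other settings. Between the reagents they rose from 428 to 1050 without negative array 2. Between siRNA 7 and siRNA 9 there were 3 calls (0 to 9 with 1 array left out, the 9 without negative array 2), 1 higher and 2 lower with siRNA 7, where 0.82% of probe sets passed as higher (157) and 1.41% as lower (271), a split that became 181 and 170 after median centring.

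**Figure D3:**
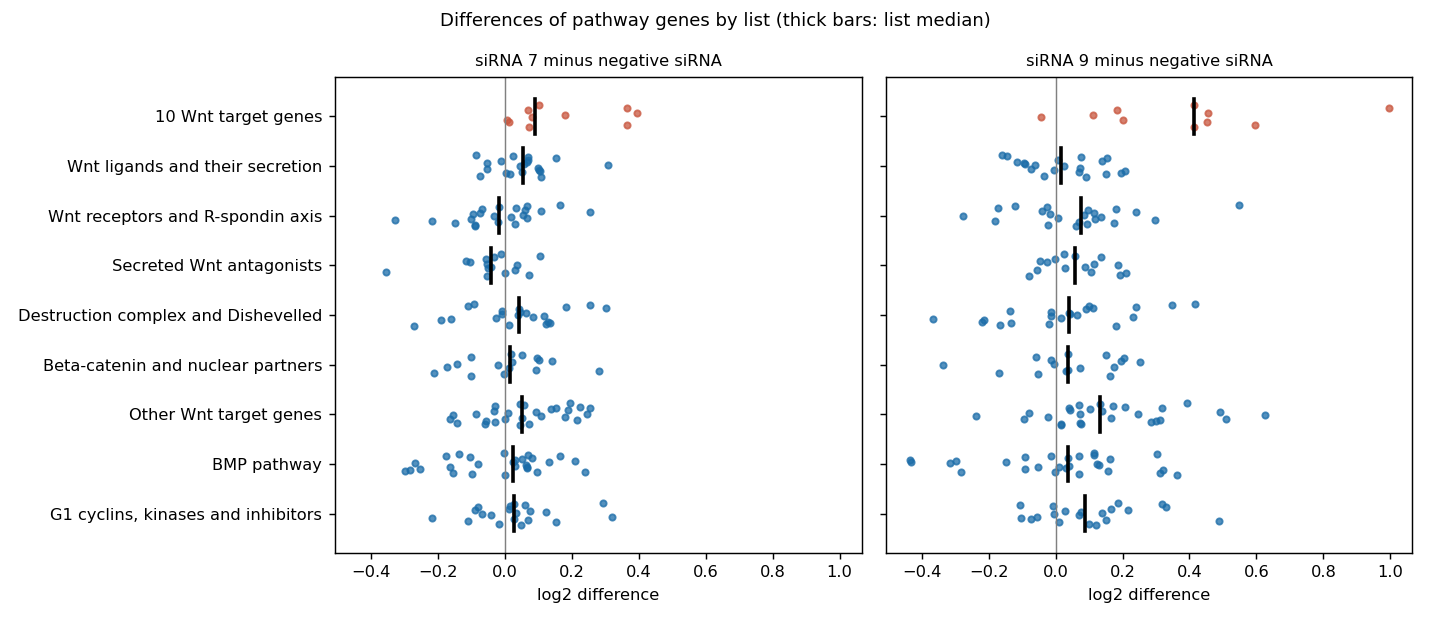
Each point is the log2 difference of 1 gene from negative siRNA, with siRNA 7 on the left and siRNA 9 on the right, and thick bars mark list medians. The 10 Wnt target genes have medians of 0.09 with siRNA 7 and 0.41 with siRNA 9, while the list medians of other pathway genes lie between -0.04 and 0.13.

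The list medians of ligands and receptors lay near 0. Of 20 genes for Wnt ligands and their secretion, 13 had a difference above 0 with the reagents together, at a median of 0.05, and none passed. WNT10B had 0.15, WNT4 had 0.16 and WLS, which carries Wnt proteins to the cell surface, had -0.12. Of 22 genes of the receptors and the R-spondin axis, 13 were above 0 at a median of 0.02. LGR6, described next, had 0.36, RYK, an atypical Wnt co-receptor, had 0.25 and the Frizzled gene FZD6 had -0.20, and none of them passed with the reagents together.

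LGR6, a close relative of LGR5, was the gene called with siRNA 9. It had 7.73 and 7.93 with siRNA 7 and 8.33 and 8.10 with siRNA 9, against 7.74, 7.60, 7.63 and 7.69 with negative siRNA. LGR6 rose by 0.55 with siRNA 9 (SE 0.10, limma adjusted p = 0.0319), and with siRNA 7 it had 0.16 (adjusted p = 0.835). The call ended without negative array 1 (adjusted p = 0.0667 in limma), negative array 3 (0.112), siRNA 9 array 1 (0.477) or siRNA 9 array 2 (0.153).

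FZD7, a Frizzled receptor gene, was lower with siRNA 7 than with siRNA 9. Its values were 7.65 and 7.46 with siRNA 7 and 8.28 and 8.08 with siRNA 9, against 7.74, 7.90, 7.82 and 8.07 with negative siRNA, so that the reagents lay on opposite sides of the negative mean. The difference between reagents was -0.62 (SE 0.13, limma adjusted p = 0.0334), while neither reagent passed against negative siRNA, with -0.33 for siRNA 7 and 0.30 for siRNA 9 (limma adjusted p = 0.471 and 0.262). The call ended without negative array 3 (adjusted p = 0.0629 in limma) and without each TRIM44 siRNA array (0.0627 to 0.303).

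Antagonists and intracellular components gave no call in any comparison. Of 15 secreted antagonists other than DKK1, 8 had a difference above 0 with the reagents together, at a median of 0.01. DKK3 had 0.13 (0.04 by its other probe set), DKK4 had 0.10 and SFRP4, which binds Wnt proteins, had 0.11. The destruction complex and Dishevelled list had 13 of 21 above 0 and a median of 0.02. TNKS2, a tankyrase that destabilises axin, had 0.30, CSNK1A1, the kinase that primes beta-catenin for degradation, had -0.26, and FBXW11, a ubiquitin ligase adaptor, had 0.21.

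In the list of beta-catenin and nuclear partners, 11 of 16 were above 0 at a median of 0.04. CTNNB1 had 10.91 and 10.88 with siRNA 7 and 11.11 and 11.21 with siRNA 9, against 10.999, 11.13, 11.01 and 10.84 with negative siRNA. Each reagent overlapped the negative arrays, while both siRNA 9 values lay above both siRNA 7 values. The CTNNB1 mean was 0.93-fold of the negative mean with siRNA 7 and 1.12-fold with siRNA 9. Its difference with the reagents together was 0.03 (limma adjusted p = 1). The co-repressor gene CTBP1 had 0.17, TCF7L2, a main TCF factor of the gut, had -0.19 and PYGO2, a co-activator, had -0.18. The PYGO2 mean was 0.99-fold of the negative mean with siRNA 7 and 0.79-fold with siRNA 9. These were 1.10-fold and 1.15-fold for CTBP1, and 0.86-fold and 0.89-fold for TCF7L2.

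Other Wnt target genes were mostly above 0 without passing. Of 27 measured, 23 had a positive difference with the reagents together at a median of 0.10, and 23 did with siRNA 9 at a median of 0.13, where 56.5% of all probe sets were above 0 with siRNA 9. With siRNA 7 there were 18 at a median of 0.05, where 49.3% of all probe sets were above 0. With the reagents together ETS2, a transcription factor gene, and PLAUR, the urokinase receptor gene, each had 0.29. CEMIP, a hyaluronan-binding protein gene, also had 0.29 (limma adjusted p = 0.792 for ETS2 and 0.903 for the other 2). The CEMIP mean was 1.07-fold of the negative mean with siRNA 7 and 1.40-fold with siRNA 9. These were 1.15-fold and 1.31-fold for ETS2, and 1.19-fold and 1.25-fold for PLAUR. At an unadjusted p under 0.05 there were 3 of 27 with the reagents together, against 5.43% of all probe sets, and 8 with siRNA 9, against 13.6%. Earlier results on Wnt targets in these arrays were known when the list was made, so its direction is no independent evidence.

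BMP4 and CCND1 lead to neighbouring pathways. In the BMP list 15 of 27 genes were above 0 with the reagents together at a median of 0.02. SMAD9, a signal transducer of BMP receptors, had -0.29, ACVR2A had -0.17 and ID4 had -0.20. SMAD9 and ACVR2A had a mean below the negative mean with each reagent. The ID4 mean was 1.02-fold of the negative mean with siRNA 7 and 0.74-fold with siRNA 9. Between the reagents limma called 2 genes of the list. ACVR1, a type I BMP receptor gene, had 7.17 and 7.30 with siRNA 7 and 7.87 and 7.82 with siRNA 9, against 7.49, 7.63, 7.41 and 7.57 with negative siRNA. Again the siRNA 7 arrays were below and the siRNA 9 arrays above the whole negative range, and the reagents differed by -0.61 (SE 0.11, limma adjusted p = 0.0200).

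ID2, a BMP-responsive inhibitor of helix-loop-helix factors and also described as a Wnt target, ran the other way. It had 10.21 and 10.28 with siRNA 7 and 9.58 and 9.78 with siRNA 9, against 10.25, 10.06, 10.16 and 9.98 with negative siRNA, and the difference between reagents was 0.56 (SE 0.12, limma adjusted p = 0.0337). Against negative siRNA it had -0.43 with siRNA 9 (adjusted p = 0.0795 in limma). Without each TRIM44 siRNA array the calls between reagents ended for ACVR1 (adjusted p = 0.0822 to 0.203 in limma) and ID2 (0.0975 to 0.307), and for ID2 also without negative array 3 (0.0653).

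**Figure D4:**
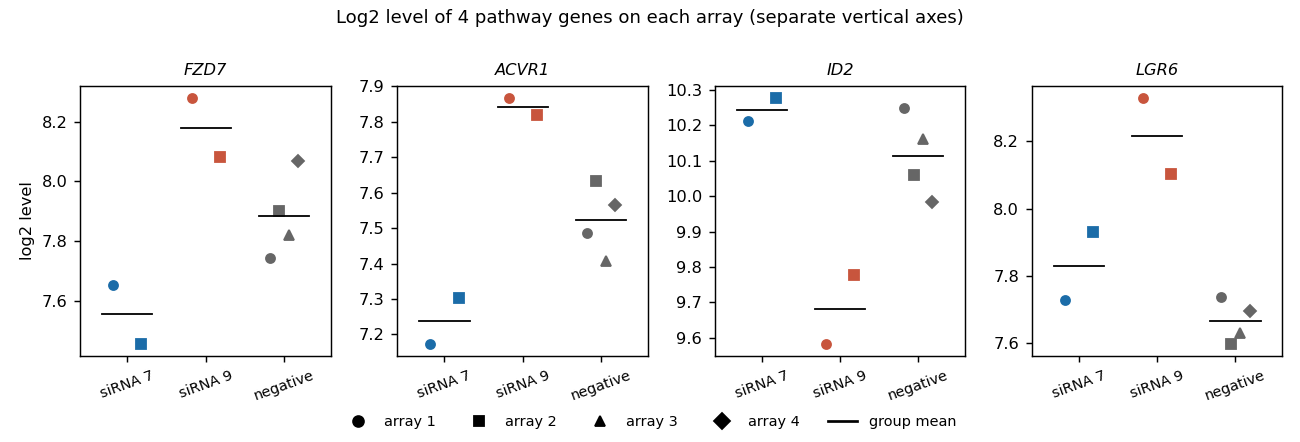
Each panel plots the log2 level of 1 gene (vertical axis, scaled separately) on every array of siRNA 7, siRNA 9 and negative siRNA, with a line at the group mean. FZD7 and ACVR1 are lower and ID2 is higher on the siRNA 7 arrays than on the siRNA 9 arrays, and LGR6 is highest on the siRNA 9 arrays.

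Of 20 genes of the G1 cyclins, their kinases and inhibitors other than CCND1, 16 were above 0 with the reagents together at a median of 0.08, and none passed in any comparison. E2F3 had 0.17, the phosphatase gene CDC25A had 0.24 and CDK6 had -0.16. The E2F3 mean was 1.02-fold of the negative mean with siRNA 7 and 1.25-fold with siRNA 9. For CDC25A the difference was 0.12 without siRNA 7 array 2. CDK6 had a mean below the negative mean with each reagent.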

How the data were processed

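Levels of RNA in 8 HSC39 samples were deposited by the authors as log2 values, 1 per probe set and array, with 32321 probe sets in all. The submitters' processing notes name limma without a version. The labels and file headers used here do not state the genome build, the filters, or how probes were summarised and normalized. Once sorted, the deposited values of different arrays lay within 0.180 of each other at every rank.

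The 19158 probe sets with exactly 1 symbol (18404 genes) were tested without a filter. Those left out were 1388 with several symbols and 11775 with none. Where a gene had several probe sets, the one of highest mean stood for it. A limma fit of 2 groups gave TRIM44 siRNA against negative siRNA, and a fit of 3 group means gave each reagent, with Benjamini-Hochberg adjustment over 19158 probe sets and a threshold of 0.05. The differences from negative siRNA, on which the genes were chosen, carry no test. Named genes are TRIM44, CTNNB1, the 10 genes and, per list, those past the threshold and up to 3 with the lowest unadjusted p with both reagents pooled. The members and lists were chosen with earlier results of these data known. Other settings tried were median centring, quantile normalization, a test of the brighter 50% of probe sets, array weights, a trended and robust prior, 3 group means for the pooled contrast, the replicate number as a block, and each array left out. The number of arrays limits the precision. R 4.3.3, limma 3.58.1, Python 3.11.15 and matplotlib 3.10.9 were used.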

Additional observations from a re-analysis of the deposited data

Results flagged for a closer look

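Of 78 sets of 4 arrays examined, 5 had 1 array apart from the other 3, with its gap as a share of the set's range above Dixon's 95% critical value. Chance gives this in about 1 of 20 sets drawn from 1 population, and 5 of 78 is near that rate. The TRIM44 siRNA sets mix 2 reagents, so the rate need not hold for them. ZNRF3 had siRNA 7 array 2 at 9.59 above the other TRIM44 siRNA arrays (gap 0.956 of the range), and WLS had siRNA 7 array 1 at 9.49 above them (0.857). Negative array 2 stood apart within its group for RNF43, at 8.80 below the others (0.864), for PLAUR, at 9.72 above them (0.901), and for SMAD9, at 9.06 below them (0.904). A further 3 genes differed between siRNA 7 and siRNA 9 by limma's test of that difference. It was -0.62 for FZD7 (limma adjusted p = 0.0334), -0.61 for ACVR1 (0.0200) and 0.56 for ID2 (0.0337), with siRNA 7 minus siRNA 9. No cause was tested for these values.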

How the results depend on the processing

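With the reagents together, the median difference of the 10 genes was 0.23 to 0.28 under the other settings and 0.14 to 0.33 with each array left out. There all 10 genes stayed above 0, except ZNRF3 without siRNA 7 array 2. The upper 50% of probe sets held 9 of them, without LGR5. Of the pathway genes named, ACVR1, WNT4, DKK3, DKK4 and SFRP4 were not held either. With siRNA 7 alone, leaving out 1 array put LGR5 at -0.21, NKD1 at -0.10, ZNRF3 at -0.04, ASCL2 at -0.02 and RNF43 at -0.03 at the lowest, and with siRNA 9 ZNRF3 was below 0 under every setting. None of the 10 passed between reagents under any setting (limma, 0 to 5 at an unadjusted p under 0.05).

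Of the 168 pathway genes, limma called none under any setting with the reagents together (6 to 29 at an unadjusted p under 0.05) or with siRNA 7 (7 to 19). With siRNA 9 it called 4 with the upper 50% of probe sets, 4 with the trended and robust prior, 27 with array weights and 0 with the replicate block, and 0 to 14 with an array left out, the 14 without negative array 2. Where it called 0, 15 to 29 had an unadjusted p under 0.05. Between reagents it called 3, and 8, 6 and 13 with the upper 50%, the prior and array weights, and 0 to 9 with an array left out (23 to 24 unadjusted where 0). The replicate block gave 3 there, and LGR6 had an adjusted p of 0.163 with it. Same-numbered arrays had deviations correlated at 0.02 between siRNA 7 and siRNA 9, 0.27 and 0.31 between siRNA 7 and negative siRNA, and 0.06 and 0.13 between siRNA 9 and negative siRNA. With 2 shared numbers and no label that ties them to a culture or day, the numbers were not taken to pair samples.

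Over all probe sets the counts were 1 with the reagents together (0 to 33 under other settings), 13 with siRNA 7 (0 to 83), 177 with siRNA 9 (0 to 2082) and 428 between reagents (0 to 1063), of which 157 were higher and 271 lower, and 181 and 170 after median centring. Where these were 0, limma had 592 to 2003 at an unadjusted p under 0.05. Without negative array 2 the counts over all probe sets were 1067 with siRNA 9 and 1050 between reagents. With 1 array left in a reagent, it was assumed to vary like the other groups. The cause of these changes was not tested.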
